A study of Mus musculus with 24 samples.

Results

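The transcripts of 10 genes of the NF-kappaB system were followed in mouse macrophages grown from bone marrow. The subunit genes were Nfkb1, Nfkb2, Rel and Relb. The genes of the IkappaB family were Nfkbia, Nfkbie, Nfkbiz and Bcl3. The others were Tnfaip3 and Tnip1, whose products act on ubiquitin chains upstream. The 10 genes were taken by name from the gene spots of the arrays. There they made up 10 of 37325 named genes and were read by 20 probes. The KO cells came, per the labels, from mice in which LysM-Cre, a recombinase expressed from the lysozyme gene Lyz2 of the myeloid lineage, meets a floxed glucose transporter gene Slc2a1 (GLUT1), and the WT cells came from animals labelled as WT or as Slc2a1 fl/fl floxed controls without a distinction between them. Marrow cells of both genotypes spent 6 days in 20 ng/ml M-CSF, the growth factor that yields macrophages. Another 24 h followed, without a stimulus in KO M0 and WT M0. KO M1 and WT M1 received lipopolysaccharide (5 ng/ml) together with interferon-gamma (10 ng/ml), and KO M2 and WT M2 received interleukin-4 (10 ng/ml). Each of the 6 groups had 4 replicates, biological ones per the design text, on 1 array each. The sources used here do not give the age or sex of the mice or how many animals gave the replicates, and the spread between replicates may in part be technical.

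NF-kappaB is a family of dimeric transcription factors that rest in the cytoplasm bound to IkappaB proteins. Lipopolysaccharide acts through the receptor Tlr4 and the IkappaB kinase complex, which marks IkappaB alpha for destruction and frees the dimers, while a slower alternative branch runs through the kinase Map3k14 and the processing of the Nfkb2 product p100 to p52, the partner of RelB. Many components are themselves targets of NF-kappaB in macrophages, among them the inhibitors IkappaB alpha (Nfkbia) and IkappaB epsilon (Nfkbie) and the ubiquitin-editing protein A20 (Tnfaip3), which limit the signal that induced them.

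The promoters of 5 of the genes are shown first, because several of these genes are known targets of NF-kappaB and moved together below. A promoter entry of the RefSeq table (build GRCm38.p6, 250 bases before to 50 after the transcript start) was found for 7 of the 10 genes, in 10 entries, and not for Nfkb1, Relb and Nfkbiz. The decameric kappa-B consensus, searched on both strands with overlapping matches counted once each, occurred in 9 of the 10 entries and in at least 1 entry of all 7 genes, against 4.51% of 32851 promoters of the same length. Below are the 250 bases upstream of the start for 3 genes that were higher and 2 that were lower in KO than in WT in the M1 state, 5′ to 3′ on the strand of the gene, with the consensus matches in capitals. The window of Nfkb2 (the first of its 3 starts) lies at chr19:46304487-46304736 on the plus strand, that of Tnfaip3 (the first of 2 starts) at chr10:19015411-19015660 on the minus strand, that of Tnip1 at chr11:54962941-54963190 on the minus strand, that of Nfkbia at chr12:55492648-55492897 on the minus strand, and that of Nfkbie at chr17:45555450-45555699 on the plus strand.
Nfkb2: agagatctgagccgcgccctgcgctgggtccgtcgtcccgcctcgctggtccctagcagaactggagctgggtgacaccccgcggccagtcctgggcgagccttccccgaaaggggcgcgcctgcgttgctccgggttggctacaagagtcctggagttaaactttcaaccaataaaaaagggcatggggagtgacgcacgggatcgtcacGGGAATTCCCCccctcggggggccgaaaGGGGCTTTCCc
Tnfaip3: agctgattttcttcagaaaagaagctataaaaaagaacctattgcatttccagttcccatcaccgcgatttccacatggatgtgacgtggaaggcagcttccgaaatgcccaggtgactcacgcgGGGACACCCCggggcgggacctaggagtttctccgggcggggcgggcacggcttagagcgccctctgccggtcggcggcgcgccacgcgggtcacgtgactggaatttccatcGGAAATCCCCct
Tnip1: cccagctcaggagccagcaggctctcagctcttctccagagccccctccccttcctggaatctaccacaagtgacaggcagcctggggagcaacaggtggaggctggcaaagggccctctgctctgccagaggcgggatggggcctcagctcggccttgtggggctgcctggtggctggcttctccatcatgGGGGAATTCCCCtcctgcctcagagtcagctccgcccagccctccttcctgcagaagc
Nfkbia: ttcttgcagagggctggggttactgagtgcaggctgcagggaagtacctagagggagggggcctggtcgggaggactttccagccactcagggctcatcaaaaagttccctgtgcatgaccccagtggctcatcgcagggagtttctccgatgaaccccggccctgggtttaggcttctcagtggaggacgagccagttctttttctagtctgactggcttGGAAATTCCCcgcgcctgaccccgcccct
Nfkbie: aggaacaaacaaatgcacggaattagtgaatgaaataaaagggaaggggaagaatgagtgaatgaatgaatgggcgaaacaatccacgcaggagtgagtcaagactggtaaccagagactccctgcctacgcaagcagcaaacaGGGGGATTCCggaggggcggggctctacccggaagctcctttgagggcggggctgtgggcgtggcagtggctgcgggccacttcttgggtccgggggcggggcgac
The genes that were higher and those that were lower in KO both held matches. All 7 genes with an entry held a match, so its presence could not separate them. In the Rel entry the matches started at -92 and -91, and the Bcl3 entry held its match 2 bases after the start.

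Levels are log2 intensities of the brightest probe of a gene relative to the 75th percentile of all gene probes on the array, and they are not compared between genes because probes differ in brightness. That percentile ran over the 24 arrays from 2253 to 4362 intensity units, and the share of gene probes well above background from 50.8% to 71.3%. The 24 arrays form 4 sets, each with every group once. Sets 1 to 3 lie on 1 slide each, and the 4th is made of the further KO and WT pair on each slide. Those pairs are M0 on slide 1, M1 on slide 2 and M2 on slide 3. Differences between states within the 4th set are therefore also differences between slides, and these cannot be told apart. In that 4th set the Y-linked Ddx3y, Eif2s3y and Uty exceeded background clearly on 0 of 6 arrays and on 18 of 18 arrays of the other sets. The X-linked Xist did so on 6 of 6 arrays of the 4th set and 2 of 18 of the others. The 4th set thus differed from the others in sex-linked transcripts. Spots marked as nonuniform were most numerous on arrays of set 2. They numbered 1910 on WT M2 replicate 2, 1371 on KO M0 replicate 3 and 666 on WT M1 replicate 2. The next highest count was 67, on WT M2 replicate 1 of set 1. Values below are given in the order of sets 1 to 4. Of the macrophage markers 9 of 9 were well above background on every array, but so were 7 or 8 of 8 neutrophil markers, so this count does not settle the cell type. Between KO M1 and WT M1, 2 of the 9 were higher in KO (Mrc1 by 2.67 ± 0.43 and Cd68 by 0.55 ± 0.10). Lower were 2, Mertk by -1.47 ± 0.35 and Lyz2 as given below, and 5 were not called. The targeted gene Slc2a1 averaged 1.94, 5.43 and 2.65 in KO M0, M1 and M2, against 2.24, 5.15 and 2.84 in WT, with no difference called (adjusted p = 1, 0.512 and 0.999), and the sources used here do not say whether its probe lies in the deleted part. Lyz2, which carries the Cre insertion, was lower in KO in all 3 states, by -2.63 ± 0.38, -3.34 ± 0.38 and -4.06 ± 0.38. As the state labels say, Nos2 was higher in M1 than M0 by 9.41 ± 0.46 in KO and 10.14 ± 0.46 in WT. Arg1 was higher in M2 than M0 by 7.56 ± 0.37 in KO and 6.49 ± 0.37 in WT. In WT, however, Arg1 was not high in M2 alone. Its mean was 5.5 in WT M1 and 0.48 in KO M1, against 0.3 in WT M0 and -1.21 in KO M0. Between KO M1 and WT M1 Arg1 was lower in KO, by -5.01 ± 0.37 (adjusted p = 1.18e-09). Nos2 was also called higher in M2 than M0 in WT (2.12 ± 0.46), and not in KO (1.06 ± 0.46).

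The 4 genes Nfkb2, Relb, Tnfaip3 and Tnip1 were higher in KO than in WT after activation with lipopolysaccharide and interferon-gamma, and the IkappaB genes Nfkbia, Nfkbie and Bcl3 were lower. Differences are log2 values ± the standard error of a limma fit across all 38856 probes tested, and a gene was called at a Benjamini-Hochberg adjusted p under 0.05. In M1, 9 of the 10 genes were called, 6 higher and 3 lower in KO (4 higher and 3 lower without the 4th array set described above, where 53.2% of all probes were called). Of all probes tested in this comparison 46.3% were called, 25.9% higher and 20.4% lower, so that M1 differed between KO and WT across the whole array. The 10 genes had a median difference of 0.47 and a range from -1.60 to 1.47, against a median of 0.18 over all probes. The arrays of the 2 groups did not overlap for 44.8% of all probes, 25% with KO above and 19.9% with KO below, so lack of overlap was common. In M0 and in M2 the same comparison called 0 of the 10 genes.

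**Figure D1:**
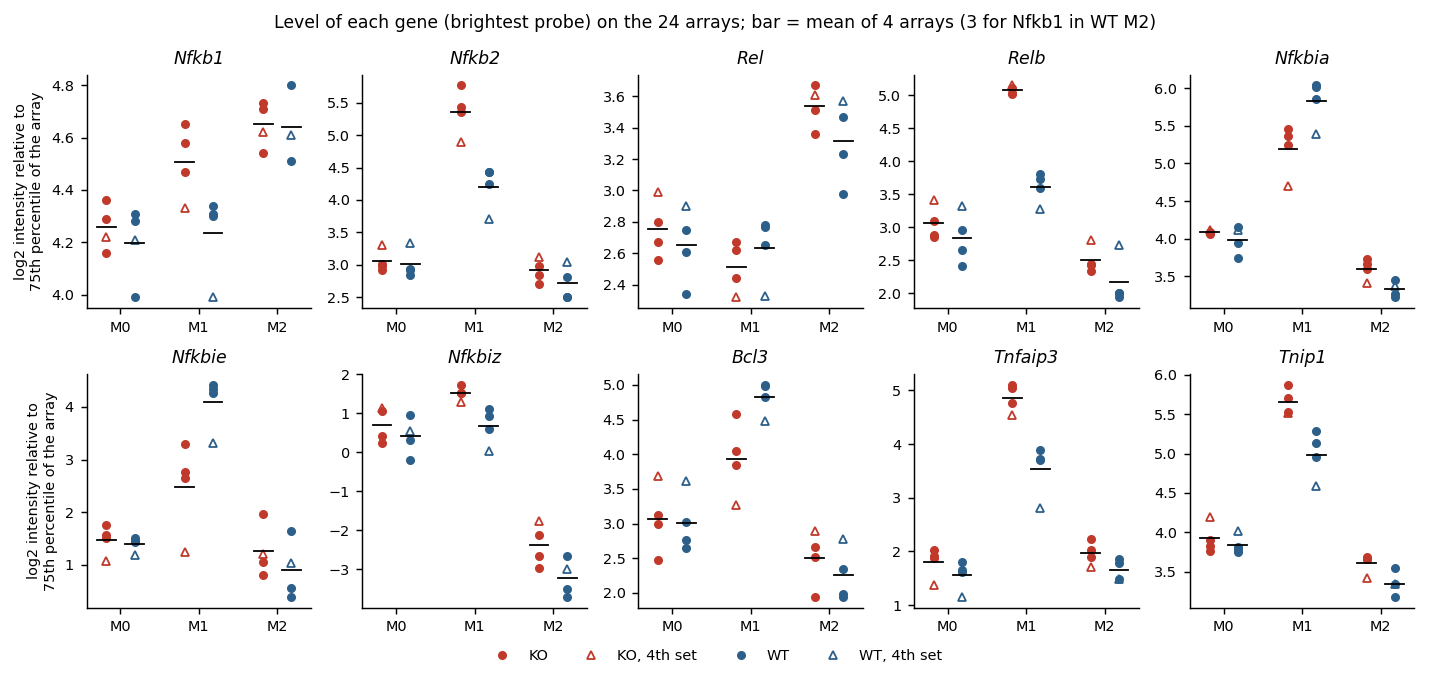
Level of each gene on the 24 arrays (log2 intensity relative to the 75th percentile of the array, vertical axis, with a scale of its own in each panel) in M0, M1 and M2, with KO in red left of WT in blue, open triangles for the 4th set and bars for group means. In M1 the 4 KO arrays lie above the 4 WT arrays for Nfkb2, Relb, Nfkbiz, Tnfaip3 and Tnip1 and below them for Nfkbie. Of all probes 25% lie above and 19.9% below in this way.

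Of the subunits, Relb, the transactivating partner of p52, differed most. Its level was 5.10, 5.01, 5.03 and 5.15 in KO M1, against 3.73, 3.60, 3.8 and 3.28 in WT M1. All 4 KO arrays lay above all 4 WT arrays, and the KO values spanned less than the WT values. The difference was 1.47 ± 0.19 (2.77-fold, adjusted p = 2.7e-06, n = 4 each). Nfkb2, which encodes p100 and its product p52, stood at 5.77, 5.35, 5.44 and 4.89 in KO M1, against 4.43, 4.25, 4.43 and 3.71 in WT M1. The lowest array of either genotype was that of the 4th set, and the groups did not overlap. The difference was 1.16 ± 0.19 (2.23-fold, adjusted p = 3.27e-05). By group means the order for both genes was KO M1, WT M1, the M0 groups and the M2 groups. M0 and M2 values overlapped within each genotype for Nfkb2, and for Relb in WT and not in KO.

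Nfkb1, which encodes p105 and p50, moved far less. It was at 4.58, 4.65, 4.47 and 4.33 in KO M1, against 4.30, 4.31, 4.34 and 3.99 in WT M1. The groups overlapped at the KO array of the 4th set. The difference of 0.27 ± 0.11 (1.21-fold) passed narrowly (adjusted p = 0.043) and was -0.005 under quantile normalization. It was not called without the 4th set (0.25, adjusted p = 0.082), nor without any 1 of KO M1 replicates 1, 2 and 4 and WT M1 replicates 1 and 3 (highest adjusted p = 0.158). Rel, which encodes the c-Rel subunit, was at 2.67, 2.62, 2.44 and 2.32 in KO M1 and 2.65, 2.78, 2.77 and 2.33 in WT M1. These ranges overlapped almost fully, and the difference of -0.12 ± 0.15 was not called (adjusted p = 0.55, 95% interval -0.43 to 0.19).

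Of the inhibitors, Nfkbie, which encodes IkappaB epsilon, fell most. Its level was 2.64, 3.29, 2.77 and 1.23 in KO M1, against 4.42, 4.35, 4.26 and 3.32 in WT M1. Every KO array lay below every WT array, narrowly at the closest pair, and the 4th set was lowest in both genotypes. The difference was -1.60 ± 0.36 (3.04-fold lower, adjusted p = 0.00106). Within the sets it was -1.78, -1.06, -1.49 and -2.09. Nfkbia, which encodes IkappaB alpha, was at 5.37, 5.46, 5.25 and 4.70 in KO M1, against 6.04, 5.86, 6.02 and 5.39 in WT M1. Here the WT array of the 4th set overlapped the KO range, but within each set the KO array was lower, by -0.67, -0.40, -0.77 and -0.69. The difference was -0.64 ± 0.16 (1.55-fold lower, adjusted p = 0.00202).

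The nuclear members of the IkappaB family went in opposite directions. Bcl3, which binds p50 and p52 homodimers, was at 4.58, 4.05, 3.85 and 3.27 in KO M1, against 5.00, 4.99, 4.83 and 4.48 in WT M1. The KO arrays spread widely and the highest overlapped the WT range. The difference was -0.89 ± 0.29 (1.85-fold lower, adjusted p = 0.0172). It was -0.66 (adjusted p = 0.0734) without KO M1 replicate 3, which belongs to the 4th set. Nfkbiz, which encodes IkappaB zeta, a cofactor for secondary response genes such as Il6, was at 1.52, 1.73, 1.51 and 1.29 in KO M1, against 1.11, 0.93, 0.59 and 0.02 in WT M1. All KO arrays lay above all WT arrays, with the 4th WT array far below the others. The difference of 0.85 ± 0.31 (1.81-fold, adjusted p = 0.0283) was not called without the 4th set (0.71, adjusted p = 0.0834), nor in 5 of the 8 fits that left out 1 array of the 2 groups (KO M1 replicates 1, 2 and 4 and WT M1 replicates 3 and 4), where its adjusted p reached 0.11.

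Both genes of the A20 axis were higher in KO. Tnfaip3, which encodes A20, was at 5.10, 5.04, 4.76 and 4.54 in KO M1, against 3.72, 3.70, 3.89 and 2.80 in WT M1. The groups were well apart, and the difference was 1.33 ± 0.21 (2.52-fold, adjusted p = 2.8e-05), between 0.88 and 1.74 within the sets. Tnip1, which encodes the A20-binding ABIN1, was at 5.87, 5.71, 5.53 and 5.52 in KO M1, against 4.95, 5.13, 5.28 and 4.59 in WT M1. The groups did not overlap, and the difference was 0.67 ± 0.14 (1.59-fold, adjusted p = 0.000418). Under quantile normalization it was 0.24 (adjusted p = 0.154).

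**Figure D2:**
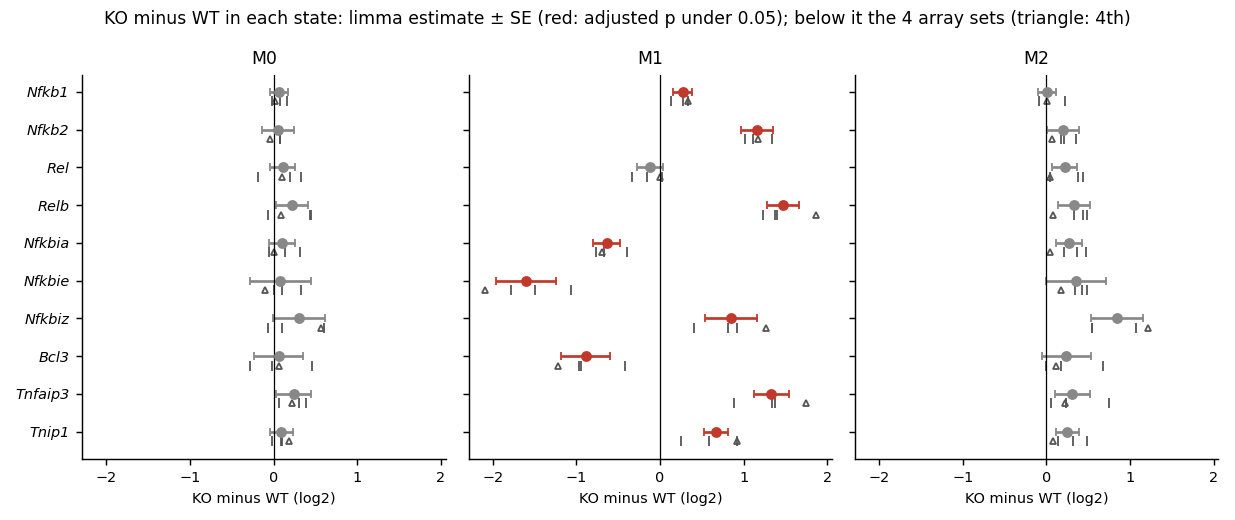
KO minus WT in M0, M1 and M2 (log2 difference, horizontal axis, the same scale in the 3 panels), as the limma estimate ± SE, red where the adjusted p was under 0.05, with the difference in each array set below it (ticks for sets 1 to 3, an open triangle for the 4th). The 9 called genes are all in M1, between -1.60 for Nfkbie and 1.47 for Relb.

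Measures other than the 10 genes also differed between arrays of KO M1 and WT M1. The 75th percentile was 2253 to 2491 intensity units on the KO M1 arrays and 2728 to 3618 on the WT M1 arrays. Quantile normalization, which forces the same distribution on every array, put the median difference of all probes at -0.03 in place of 0.18. The share of called probes that were higher in KO was 44.1% under it, 66.2% with normexp background correction, 68% without a filter on dim probes and 55.9% as reported here. Under it 7 of the 10 genes were called, 4 higher and 3 lower, against 45.4% of all probes. Nfkb2, Relb and Tnfaip3 were then higher by 0.78, 1.14 and 1.02 and Nfkbia lower by -1.04. Markers of other cell types are given as the log2 of their summed linear levels, in which the brightest marker weighs most. For 8 neutrophil markers, all 8 well above background on these arrays, it was 5.59 to 6.96 in KO M1 and 3.77 to 5.64 in WT M1. By gene, 3 of the 8 were higher in KO M1 (S100a9 by 2.29 ± 0.77, Camp by 2.31 ± 0.77 and Ngp by 2.39 ± 0.93), 4 were not called, and Ly6g was lower by -2.71 ± 0.70 (adjusted p = 0.00316). The summed level of 4 stromal markers was -0.93 to 1.43 in KO M1 and -0.72 to -0.28 in WT M1, with 3 or 4 well above background. Of 3 mast cell and basophil markers it was -4.79 to -0.29 in KO M1 and -5.71 to -3.97 in WT M1. Of 4 B cell markers it was -3.11 to -1.78 in KO M1 and -2.36 to -2.04 in WT M1, and of 4 T cell markers 1.33 to 1.85 in KO M1 and 1.18 to 1.72 in WT M1, with Cd8a never above background. Of 6 dendritic cell markers it was 1.16 to 3.39 in KO M1 and 0.85 to 2.98 in WT M1, with Xcr1 never well above background, and neither NK cell marker was so in KO M1. The part of other cell types in the result was not tested, and in these bulk samples fewer cells of a type and less RNA per cell cannot be told apart.

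Probes of the same gene gave close differences for Nfkb2 and for 2 of the 3 Relb probes, and differed for Tnip1 and the third Relb probe. The second probe of Nfkb2 gave 1.13 ± 0.19 (adjusted p = 5.33e-05) beside 1.16, and the second of Relb, at position 1767 of its transcript, gave 1.49 ± 0.20 (adjusted p = 3.25e-06) beside 1.47 at position 1993. The third Relb probe is 785 bases into another transcript (mm9 chromosome 7, 20203058 to 20203117), far upstream of the other pair, and gave 0.17 ± 0.27 (adjusted p = 0.641). Its levels were -1.27, -2.09, -1.82 and -1.62 in KO M1, against -2.02, -2.35, -1.20 and -1.91 in WT M1, which overlap, and M1 minus M0 was not called for it in KO (0.40 ± 0.27) or WT (0.33 ± 0.27). For Tnip1 the brightest probe, near the transcript's 3′ end at position 2934, gave 0.67, whereas the probe at position 273 (mm9 chromosome 11, 54754213 to 54754272) gave 1.59 ± 0.22 (3.01-fold, adjusted p = 4.51e-06). This second probe lay at -3.66, -3.07, -2.73 and -3.44 in KO M1 and at -5.03, -4.87, -4.91 and -4.47 in WT M1. The other probes of Nfkb1 gave 0.39 ± 0.27 (adjusted p = 0.253) and 0.21 ± 0.14 (adjusted p = 0.224), and that of Nfkbiz 0.70 ± 0.54 (adjusted p = 0.309). The 2 probes of Rel gave -0.12 and 0.23, neither called. Nfkbia, Nfkbie and Tnfaip3 have a single probe, and a further probe each of Nfkbiz and Bcl3 was well above background on 0 of 24 arrays and was not tested, which left 18 of the 20 probes.

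**Figure D3:**
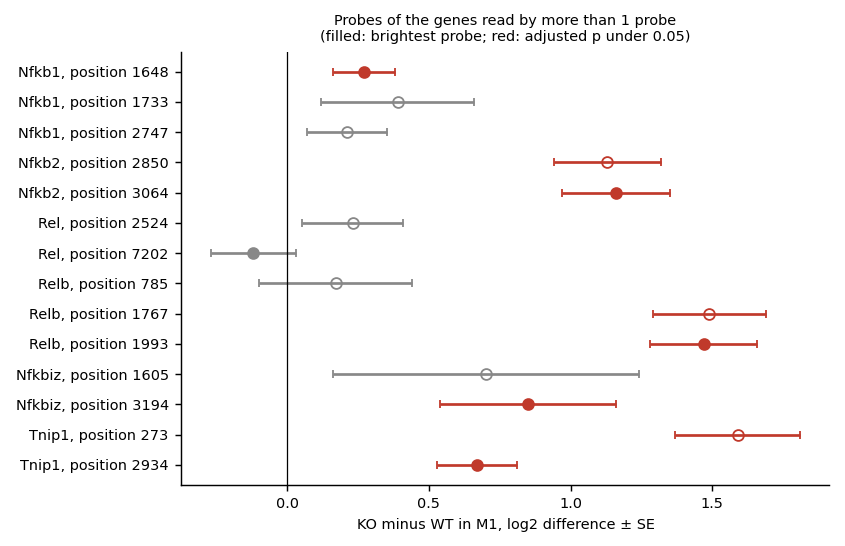
KO minus WT in M1 (log2 difference ± SE, horizontal axis) for every tested probe of the 6 genes read by more than 1 tested probe, labelled with the position of the probe in its own target transcript. The 785 probe of Relb sits at 0.17 while the other Relb probes sit at 1.47 and 1.49, and the 273 probe of Tnip1 at 1.59 while the other sits at 0.67.

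Before activation KO and WT were close. In M0 the differences of the 10 genes ran from 0.05 to 0.30 with a median of 0.10, and 0 of 10 were called, where 0.0386% of all probes were (0.00772% higher and 0.0309% lower). By the unadjusted test of limma 0 of the 10 brightest probes were under 0.05. The 95% intervals were narrow for the subunits, -0.16 to 0.28 for Nfkb1 and -0.35 to 0.44 for Nfkb2, and wider for Nfkbie (-0.68 to 0.84). In M2 the differences ran from 0.01 for Nfkb1 to 0.84 for Nfkbiz with a median of 0.26, all 10 positive, and again 0 were called, against 0.0566% of all probes (0.0335% higher and 0.0232% lower). Nfkbiz was at -2.66, -2.12, -2.98 and -1.77 in KO M2 and at -3.72, -2.66, -3.52 and -2.99 in WT M2. The KO array was the higher one in each set, the groups overlapped, and the difference of 0.84 ± 0.31 did not pass over all probes (adjusted p = 0.908). It was the only 1 of the 10 with an unadjusted p under 0.05. Its interval of 0.20 to 1.49 covers the 0.85 found in M1. Rela, the main transactivating subunit outside the 10, had no called difference in any state (0.05 ± 0.11 in M0, -0.11 ± 0.11 in M1 and 0.11 ± 0.11 in M2).

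The response to lipopolysaccharide and interferon-gamma was examined within each genotype. In KO, M1 minus M0 called 8 of the 10 genes, all higher, where 57.3% of all probes were called, 32.2% higher and 25.1% lower. In WT it called 7 of 10, all higher, where 48.1% of all probes were called, 24.5% higher and 23.6% lower. The median difference of the 10 genes was 1.06 in KO and 1.17 in WT. Without KO M1 replicate 1 the count in KO was 5, and without the 4th set it was 9, where 61.1% of all probes were called. Both comparisons share arrays with those between genotypes.

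Tnfaip3 rose by 3.07 ± 0.21 (8.37-fold, adjusted p = 1.58e-10) in KO and by 1.97 ± 0.21 (3.91-fold, adjusted p = 1.88e-07) in WT. Its M0 levels were 1.37 to 2.03 in KO and 1.15 to 1.81 in WT, so the genotypes started from overlapping values. Nfkb2 rose by 2.3 ± 0.19 in KO and 1.19 ± 0.19 in WT, from M0 levels of 2.92 to 3.30 in KO and 2.84 to 3.34 in WT. Relb rose by 2.01 ± 0.19 in KO and 0.76 ± 0.19 in WT, where the 4th set alone, with its states on different slides, showed no rise (-0.04). Tnip1 rose by 1.73 ± 0.14 in KO and 1.15 ± 0.14 in WT. Nfkbie, Nfkbia and Bcl3 showed the other order. Nfkbie rose by 1.01 ± 0.36 (2.01-fold, adjusted p = 0.0226) in KO and by 2.69 ± 0.36 (6.46-fold, adjusted p = 3.31e-06) in WT, and Nfkbia by 1.11 ± 0.16 in KO and 1.84 ± 0.16 in WT. Bcl3 rose by 0.87 ± 0.29 (adjusted p = 0.0153) in KO and 1.81 ± 0.29 in WT. In KO its sets gave 1.46, 1.05, 1.37 and -0.41, so the 4th, with its states on different slides, ran against the others. The rise of Nfkbie in KO was not called without KO M0 replicate 2 or KO M1 replicates 1, 2 or 4 (highest adjusted p = 0.0999) or under quantile normalization (0.81, adjusted p = 0.0554), under which that of Bcl3 was not called either (0.46, adjusted p = 0.198). Nfkbiz rose by 0.80 ± 0.31 (adjusted p = 0.0312) in KO, while in WT its value was 0.25 ± 0.31 (adjusted p = 0.539). The Nfkbiz call was lost without any 1 of KO M0 replicates 1 and 4 and KO M1 replicates 1, 2 and 4 (highest adjusted p = 0.101), and the Bcl3 call in KO without KO M0 replicate 4 or KO M1 replicate 1 (0.0657 and 0.0716). Nfkb1 gave 0.25 ± 0.11 (adjusted p = 0.0509) in KO and 0.04 ± 0.11 in WT, not called. With the array set as a block the KO value was called (adjusted p = 0.0383), as it was without the 4th set (0.30, adjusted p = 0.0356). Its probe at position 2747 was called in KO (0.57 ± 0.14, adjusted p = 0.00124) and not in WT (0.20 ± 0.14). Rel gave -0.24 ± 0.15 in KO and -0.02 ± 0.15 in WT, not called. Quantile normalization turned Nfkb1 in KO to -0.29 (adjusted p = 0.0143) and put Rel at -0.49 (adjusted p = 0.00855).

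Whether the M1 response itself differed was tested as an interaction, which called 6 of the 10 genes, 4 with a larger response in KO and 2 with a smaller one, against 30.8% of all probes (16.3% larger and 14.6% smaller). The difference between the responses was 1.25 ± 0.27 for Relb (adjusted p = 0.00139), 1.11 ± 0.27 for Nfkb2 (adjusted p = 0.00275) and 1.1 ± 0.30 for Tnfaip3 (adjusted p = 0.008). It was positive in all 4 sets for each of them. For Tnip1 it was 0.58 ± 0.19 (adjusted p = 0.0269), not called in 5 fits that left out 1 array (KO M0 replicates 1 and 3, KO M1 replicate 1, WT M0 replicate 2 and WT M1 replicate 3, highest adjusted p = 0.0609), and 0.09 under quantile normalization (adjusted p = 0.774). For Nfkbie it was -1.68 ± 0.51 (adjusted p = 0.0158) and for Nfkbia -0.73 ± 0.22 (adjusted p = 0.0137), negative in all 4 sets. Bcl3, at -0.94 ± 0.41, did not pass (adjusted p = 0.094), though its 4 sets were all negative, from -1.28 to -0.70. It passed under quantile normalization (adjusted p = 0.031) and without KO M0 replicate 4, KO M1 replicate 1 or WT M0 replicate 2 (adjusted p = 0.0424, 0.0373 and 0.0395). Nfkbiz (0.55 ± 0.44), Nfkb1 (0.21 ± 0.15) and Rel (-0.22 ± 0.21) were not called either.

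With interleukin-4, Nfkbiz fell and Rel and Nfkb1 rose in both genotypes, and Nfkbia, which rose with M1, fell. The Nfkb1 calls and the KO call of Nfkbia were lost in some settings, as given below. Relb and Tnip1, which also rose with M1, were also called lower in WT. M2 minus M0 called 4 of the 10 genes in KO, 2 higher and 2 lower, where 14.1% of all probes were called (6.51% higher and 7.57% lower), and 6 of 10 in WT, 2 higher and 4 lower, where 15.3% were (6.49% higher and 8.85% lower). Without the 4th set the counts were 5 in KO and 7 in WT (17.3% and 23.2% of all probes), and without WT M2 replicate 1 the count in WT was 3. Nfkbiz stood out. Its level was -2.66, -2.12, -2.98 and -1.77 in KO M2, against 0.41, 1.06, 0.25 and 1.13 in KO M0. In WT it was -3.72, -2.66, -3.52 and -2.99 in M2, against -0.19, 0.96, 0.32 and 0.55 in M0. All M2 arrays lay far below all M0 arrays of their genotype, where 11% of all probes in KO and 9.98% in WT had all M2 arrays below. The fall was 8.54-fold in KO (-3.09 ± 0.31, adjusted p = 7.46e-07) and 12.4-fold in WT (-3.64 ± 0.31, adjusted p = 6.38e-08). The other tested Nfkbiz probe gave -2.76 ± 0.54 in KO and -2.34 ± 0.54 in WT. In WT it was well above background on 3 of 4 M2 arrays, and the array of the second set did not fall (0.01). That array, WT M2 replicate 2, had the most nonuniform spots (1910) and the lowest share of probes well above background (50.8%).

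Rel and Nfkb1 rose with interleukin-4. Rel was at 3.36, 3.67, 3.51 and 3.61 in KO M2, against 2.67, 2.80, 2.56 and 2.99 in KO M0, and at 2.98, 3.23, 3.47 and 3.57 in WT M2, against 2.34, 2.61, 2.75 and 2.90 in WT M0. It did not overlap between states in either genotype, where 8.31% of all probes in KO and 7.12% in WT had all M2 arrays above. Rel rose by 0.78 ± 0.15 in KO (adjusted p = 0.00112) and 0.66 ± 0.15 in WT (adjusted p = 0.00394). Its second probe rose too, by 0.59 ± 0.18 in KO and 0.62 ± 0.18 in WT. Nfkb1 rose by 0.40 ± 0.11 in KO (adjusted p = 0.0164) and 0.44 ± 0.11 in WT (adjusted p = 0.0115, 3 WT M2 arrays because 1 spot was marked as an outlier). Without WT M2 replicate 1 the rise in WT was 0.36 (adjusted p = 0.0734). The Nfkb1 probe at position 2747 rose as well, by 0.74 ± 0.14 in KO and 0.48 ± 0.14 in WT, while the one at position 1733 was not called in KO (0.38 ± 0.27) or WT (0.35 ± 0.27). Nfkbia fell by -0.48 ± 0.16 in KO (adjusted p = 0.0419) and -0.66 ± 0.16 in WT (adjusted p = 0.00582). The KO call was lost when any 1 of the 8 arrays was left out, where the adjusted p ran up to 0.101. Relb fell in WT by -0.67 ± 0.19 (adjusted p = 0.0233, and not called without WT M0 replicate 2 or 4 or WT M2 replicate 1, 2 or 3, up to 0.0996). In KO it gave -0.56 ± 0.19 (adjusted p = 0.0629), and was called with the array set as a block (0.0235) or without the 4th set (0.00708). Tnip1 fell in WT by -0.49 ± 0.14 (adjusted p = 0.0195, but 0.0678 without WT M2 replicate 1 and 0.0705 without WT M0 replicate 2) and gave -0.32 ± 0.14 in KO (adjusted p = 0.133). No difference between the genotypes in the response to interleukin-4 was called for any of the 10, with values from -0.05 to 0.54. By limma 0 were called, as were 0 of all probes (0%), and 0 of the 10 had an unadjusted p under 0.05. The lack of a call does not show that the responses were equal.

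The rest of the pathway was taken from 5 lists. Their counts stand beside the shares of all probes called, which were 46.3% for KO minus WT in M1, 57.3% for M1 minus M0 in KO, 48.1% in WT and 30.8% for the interaction. Of 4 further family members, 1 was higher and 1 lower in KO than in WT in M1. Nfkbib, which encodes IkappaB beta, was higher by 1.80 ± 0.13 (adjusted p = 6.26e-10), and Nfkbid, which encodes the nuclear IkappaB NS, was lower by -0.76 ± 0.18. The M1 minus M0 value of Nfkbib was 3.65 ± 0.13 in KO and 1.76 ± 0.13 in WT, and the interaction was 1.89 ± 0.18. For Nfkbid these were -0.23 ± 0.18 (not called) in KO, 0.51 ± 0.18 in WT and -0.74 ± 0.26. Rela rose with M1 in both genotypes, by 0.55 ± 0.11 in KO and 0.72 ± 0.11 in WT, with no called interaction (-0.16 ± 0.15).

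Among 27 genes of the receptor and kinase branch, 7 were higher and 8 lower in KO M1 than in WT M1 (all probes 25.9% higher and 20.4% lower), with a median of -0.05. The largest rises were in Ticam2 (1.41 ± 0.18), a Tlr4 adaptor of the TRIF arm, and Traf6 (0.86 ± 0.11), a ubiquitin ligase. The largest falls were in Tirap (-2.09 ± 0.12), a Tlr4 adaptor of the MyD88 arm, and Irak4 (-1.31 ± 0.15), the kinase that MyD88 recruits. The kinase subunits differed from each other. Chuk (IKK alpha) was higher by 0.39 ± 0.10 in KO M1, Ikbkb (IKK beta) lower by -0.58 ± 0.11, and Ikbkg (NEMO) gave 0.27 ± 0.27, not called. The M1 response interaction called 6 larger and 6 smaller of the 27 (all probes 16.3% and 14.6%), led by Ticam2 (1.59 ± 0.25) and Traf6 (1.00 ± 0.15) and by Tirap (-2.0 ± 0.18) and Irak4 (-1.40 ± 0.22). Within KO, M1 minus M0 called 17 higher (32.2% of all probes), led by Ticam2 (2.69) and Tnfrsf1b (2.36), and 5 lower, led by Irak4 (-2.25) and Irak1 (-0.73). Within WT it called 20 higher (24.5% of all probes), led by Tnfrsf1b (2.25) and Rnf31 (1.61), and 3 lower, led by Ly96 (-1.51) and Irak4 (-0.86).

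Of 10 genes of the alternative branch, 2 were higher and 4 lower in KO M1 than in WT M1 (all probes 25.9% and 20.4%). Traf3, which holds Map3k14 down, was higher by 1.93 ± 0.11, and Cd40, a receptor that feeds this branch, by 0.84 ± 0.23. Tnfrsf11a, the receptor RANK, was lower by -2.12 ± 0.23 and Ikbke by -1.60 ± 0.21. The interaction called Traf3 (1.91 ± 0.16), Tnfrsf11a (-2.21 ± 0.33) and Ikbke (-1.65 ± 0.30). M1 minus M0 called 7 higher and 2 lower in KO, with Cd40 at 6.32, Traf3 at 2.97, Tnfrsf11a at -1.79 and Ikbke at -0.51, and 8 higher and 0 lower in WT, with Cd40 at 5.53 and Traf2 at 2.32.

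Of 13 further negative regulators, 3 were higher and 4 lower in KO M1 than in WT M1 (all probes 25.9% and 20.4%). The A20 partners Tax1bp1 and Rnf11 were higher by 1.15 ± 0.11 and 0.48 ± 0.11, and the ABIN2 gene Tnip2 by 0.74 ± 0.12. Pdlim2, a ligase that acts on RelA, was lower by -2.01 ± 0.21, N4bp1 by -0.86 ± 0.24, Itch by -0.51 ± 0.14 and the deubiquitinase gene Cyld by -0.34 ± 0.12. The interaction called 3 larger, led by Tax1bp1 (1.29 ± 0.15) and Tnip2 (0.74 ± 0.17), and 2 smaller, Pdlim2 (-1.86 ± 0.30) and Itch (-0.55 ± 0.20). M1 minus M0 called 7 higher and 3 lower in KO, with Nlrc5 at 3.81, Zc3h12a at 2.82, Pdlim2 at -1.64 and Itch at -0.64, and 7 higher and 1 lower in WT, with Nlrc5 at 3.90, N4bp1 at 2.32 and Otulin at -0.57.

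Of 20 established NF-kappaB target genes, 18 rose with M1 in KO, where 32.2% of all probes were higher, and 16 in WT, where 24.5% were, and 0 fell in either. The largest rises were those of Ptgs2 (11.12 in KO, 10.55 in WT), followed by Il6 in KO (9.95) and by Nos2 in WT (10.14). Il6 was well above background on 2 of 4 M0 arrays of each genotype and Ptgs2 on 3 of 4 in WT M0, so the size of these rises rests on dim M0 values. Between KO M1 and WT M1, 3 of the 20 were called, against 46.3% of all probes, and all 3 were higher in KO: Il6 by 3.12 ± 1.1 (adjusted p = 0.0252), Cd83 by 2.38 ± 0.40 and Gadd45b by 2.00 ± 0.21. The median of the 20 was 0.28, and Tnf gave -1.03 ± 0.51 (adjusted p = 0.11). The interaction called Cd83 (2.16 ± 0.56) and Gadd45b (1.90 ± 0.30). KO minus WT in M0 and in M2 called 0 genes of any of the 5 lists.

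With interleukin-4, Cd14, the co-receptor for lipopolysaccharide, fell by -2.09 ± 0.34 in KO and -2.23 ± 0.34 in WT, and Irak3 by -1.19 ± 0.17 in KO and -1.14 ± 0.17 in WT. Ticam2 (0.71 in KO) and Ticam1 (0.70 in KO, 0.58 in WT) led the rises of the kinase branch, followed in WT by Rbck1 (0.26). Cd40 rose by 1.41 ± 0.23 in KO and 1.74 ± 0.23 in WT, the only call of the alternative branch in both. Tnip3 (ABIN3) rose by 1.34 ± 0.40 in KO and 1.36 ± 0.40 in WT. Zc3h12a, an RNase that degrades inflammatory transcripts, rose by 1.26 ± 0.20 in KO and 1.02 ± 0.20 in WT. Pdlim2 fell by -0.66 ± 0.21 in KO and -0.83 ± 0.21 in WT, and Rnf11 by -0.43 ± 0.11 in KO and -0.40 ± 0.11 in WT. Of the targets, Ier3 rose by 2.06 ± 0.25 in KO and 1.83 ± 0.25 in WT and Icam1 fell by -0.85 ± 0.26 in KO and -1.0 ± 0.26 in WT. Gadd45b (0.73 in KO) and Nos2 (2.12 in WT) were the other targets called. Nfkbil1 fell by -0.44 ± 0.13 in KO and -0.51 ± 0.13 in WT, and Rela by -0.32 ± 0.11 in WT. Ikbkb was lower by -0.42 ± 0.11 in KO and -0.43 ± 0.11 in WT, while Chuk, Ikbkg, Cyld, Nfkbib and Nfkbid were not called.

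Across the 24 arrays the genes other than Nfkb1 and Rel correlated with each other at r = 0.54 to 0.96. Nfkb2 correlated with Relb at r = 0.96, with Tnip1 at 0.96 and with Tnfaip3 at 0.95. Nfkbia correlated with Bcl3 at 0.93 and with Nfkbie at 0.91, and Nfkbie with Bcl3 at 0.87. Tnip1 and Nfkbia, which differed between KO M1 and WT M1 in opposite directions, correlated at 0.89, and Nfkb2 and Nfkbia at 0.82. Nfkb1 and Rel correlated at 0.65, and Rel ran opposite to Nfkbiz at -0.78. All these values are descriptions over n = 24 arrays that share the 6 groups and the scaling, so that the difference between M1 and the other states enters most of them. By Pearson correlation with the mean standardised level of the 10 genes, the most alike of 14812 genes were Fas (0.973), a death receptor, Ogfr (0.96), Col20a1 (0.958), Tnfrsf1b (0.957), a receptor for tumour necrosis factor, and Il1a (0.957), an inflammatory cytokine.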

How the data were processed

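The deposited intensities are 1-colour Agilent spot signals, background-subtracted by Agilent Feature Extraction (version 10.7.3.1 per the file headers, 9.1 per the submitters' processing notes) with no normalization between arrays. Each array carried 62976 spots, 3671 of them controls. From the processed signal, log2 minus the array's 75th percentile was taken, nonuniform or population outlier spots were left out, and spots of a probe were averaged. The 38856 of 56605 gene probes well above background on at least 4 of 24 arrays entered one limma model of the 6 groups (limma 3.58.1, R 4.3.3) with 9 contrasts and Benjamini-Hochberg adjustment at 0.05. The fit was tested on simulated data. A gene is called by its brightest probe, and all its probes are reported. Gene names are those of the array design, and 58.3% of the gene probes could be named through RefSeq. In the pathway lists the genes named were the 2 largest calls in each direction, beside Rela, Nfkbib, Nfkbid, Chuk, Ikbkb, Ikbkg, Cyld and Tnf. Rnf11, Itch, N4bp1 and Gadd45b were also named after their values were seen. The genes and lists were chosen with earlier results of these data known. The number of arrays limits the precision, and p-values set a difference against the spread between replicates, which may in part be technical. Replicate numbers did not pair the samples. Alternatives were normexp background correction, quantile normalization, other probe filters and summaries, array set, slide and replicate number as blocks, and leaving out the 4th set or single arrays. The deposited series value table was not used.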

Additional observations from a re-analysis of the deposited data

Results flagged for a closer look

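The response to lipopolysaccharide and interferon-gamma differed between KO and WT by the interaction test for Nfkb2 (1.11), Relb (1.25), Tnfaip3 (1.1) and Tnip1 (0.58), larger in KO, and for Nfkbia (-0.73) and Nfkbie (-1.68), smaller in KO.

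Single arrays stood far from the other 3 of their group by Dixon's test in 9 cases, which is 8.41% of the groups of 4 arrays tested over 18 probes, where chance at about 1 in 20 gives about 5.3 cases, and 8 of the 9 belong to the 4th array set. In WT M1 replicate 3 the array was lowest for Nfkb1 at position 1648 (3.99), Rel at position 2524 (-3.29) and Nfkbie (3.32). In WT M2 replicate 4 it was highest for Relb at positions 1993 (2.73) and 1767 (0.68) and lowest for Tnip1 at position 273 (-6.43). KO M2 replicate 4 was lowest for Tnip1 at position 2934 (3.42), and KO M0 replicate 2 highest for Nfkb1 at position 1733 (0.94). The remaining one, KO M0 replicate 3 of the second set, was lowest for Relb at position 785 (-2.41).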

How the results depend on the processing

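When 1 array was left out, the number of the 10 genes called ran from 7 to 9 for KO minus WT in M1, 5 to 9 for M1 minus M0 in KO, 7 to 7 in WT, 3 to 4 for M2 minus M0 in KO, 3 to 7 in WT and 5 to 7 for the difference between the M1 responses. Over 11 other settings the ranges were 7 to 9, 7 to 9, 7 to 7, 3 to 5, 4 to 7 and 6 to 6 in the same order, and KO minus WT in M0 and M2 stayed at 0. Of the single-gene values under alternatives, 1742 kept direction and side of the threshold, 62 lost the call, 20 gained it and 37 changed sign. Only Nfkb1 under quantile normalization, for KO minus WT in M1 and M1 minus M0 in KO, changed sign with a call on either side, and the others had no call on either side. The values, or their range over left-out arrays, follow. For KO minus WT in M0 they were Nfkb1 -0.008 to 0.096 (leaving out 1 array), Nfkb2 -0.035 to 0.156 (leaving out 1 array), Nfkbie -0.015 to 0.215 (leaving out 1 array), Bcl3 -0.145 to 0.26 (leaving out 1 array), Tnip1 -0.005 (normexp background), -0.005 to 0.148 (leaving out 1 array). For KO minus WT in M1 they were Nfkb1 -0.005 (quantile normalization), Rel 0.055 (mean of probes per gene). For KO minus WT in M2 it was Nfkb1 -0.055 to 0.092 (leaving out 1 array). For M1 minus M0 in KO they were Nfkb1 -0.286 (quantile normalization), Rel 0.064 (mean of probes per gene). For M1 minus M0 in WT they were Nfkb1 -0.185 (quantile normalization), -0.029 to 0.121 (leaving out 1 array), Rel 0.104 (mean of probes per gene), 0.166 (without the 4th array set), -0.119 to 0.084 (leaving out 1 array). For M2 minus M0 in WT it was Tnfaip3 -0.038 to 0.184 (leaving out 1 array). For the difference between the M1 responses it was Nfkb1 -0.101 (quantile normalization). For the difference between the M2 responses they were Nfkb1 0.152 (outlier spots kept), 0.448 (mean of probes per gene), -0.115 to 0.033 (leaving out 1 array), Relb -0.006 (mean of probes per gene), -0.047 to 0.3 (leaving out 1 array), Bcl3 -0.019 to 0.386 (leaving out 1 array), Tnfaip3 -0.066 to 0.213 (leaving out 1 array). The cause was not tested. Same-numbered replicates deviated together for number 1 (r 0.08 to 0.59) and not for the others (lowest r -0.43), and 14 of 24 arrays correlated best with their own number, so the numbers were not taken as pairs. Arrays of a set deviated together (r 0.08 to 0.84, 23 of 24 best with their own set). With the set as a block the counts were 9 for KO minus WT in M1, 9 and 7 for M1 minus M0 in KO and WT, 5 and 6 for M2 minus M0 in KO and WT, and 6 for the difference between the M1 responses. Of all probes this setting called 56.6%, 64.3%, 56.6%, 25.4%, 27% and 40.6% in the same order, each a larger share than in the main fit. With the replicate number as a block 9 genes were called for KO minus WT in M1, 8 and 7 for M1 minus M0 in KO and WT, 5 and 6 for M2 minus M0 in KO and WT, and 6 for the difference between the M1 responses. The shares of all probes were 48.2%, 58.6%, 49.7%, 16.4%, 17.7% and 33%. Over all probes, KO minus WT in M0 called 15, against 23 under quantile normalization and 25 without the 4th set, and in M2 22, against 50 with the array set as a block and 89 without the 4th set. M2 minus M0 called 5471 in KO, against 9871 with the set block and 10032 without a filter, and 5959 in WT, against 10484 with the set block and 9029 without the 4th set. For M1 minus M0 in KO the share of calls that were higher was 56.2%, and 68.5% without a filter. For the difference between the M1 responses it was 52.7%, and 65.6% without a filter. Dim probes, such as Tnip1 at position 273 in M2, limit what can be read.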
